A study of Mus musculus with 6 samples.

Results

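The genes described here are the mouse zinc finger protein genes whose symbol is Zfp followed by a number and whose array signal passed a lower limit in embryonic heads. A gene was a member where a probe set that names only that gene had a mean log2 signal above 7.06 over all 6 arrays. Members were thus chosen by symbol and by mean signal. By this rule there were 262 members, out of 317 genes with such a symbol and out of 11802 genes of any name above the same limit. The other 55 Zfp genes had mean signals of 7.03 or lower, with a median of 6.28. The choice rests on signal over both genotypes together. Signals are therefore given as a description, and the limit does not use the difference between the genotypes.

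The samples were 3 heads labelled Tasp1-/- (KO) and 3 heads labelled wild type (WT), each from a separate embryo at E10.5. All 6 embryos came from intercrosses of Tasp1+/- mice on the C57Bl6 background, and only the prosencephalon and mesencephalon were taken. The labels name no Cre driver or other limit on where the allele was lost. Taspase1, the product of Tasp1, cuts the histone methyltransferases KMT2A and KMT2B as well as the precursor of the general transcription factor TFIIA. The design text gives the aim as finding genes that this protease regulates in development.

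Most proteins named Zfp carry tandem C2H2 zinc fingers, each a small fold held by a zinc ion that can contact a few bases of DNA. In many of them a KRAB domain at the other end recruits TRIM28, which brings the histone methyltransferase SETDB1 and silences retroelements and imprinted loci. The KRAB genes arose by repeated local duplication and lie in clusters. Other Zfp proteins have no KRAB domain and act at promoters of neural or stem cell genes, or bind RNA.

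The Tasp1 probe set did not show a loss. Its log2 signal was 8.63, 8.63 and 8.50 among KO-labelled heads, against 8.10, 8.45 and 8.49 among WT-labelled heads, with a limma adjusted p of 0.675. Whether its probes lie in the deleted part is not known, so it checks nothing, and the heads are called by their labels. Between pairs of arrays, Pearson correlations across genes were 0.989 to 0.996 over all genes tested and 0.987 to 0.996 over the members. WT 1 stood apart on the first principal component, at −13.3 against −1.06 to 6.20 for the other heads. Xist was high in WT 2 alone, at 12.3, and lay at 4.90 to 5.24 elsewhere. The Y-linked genes Eif2s3y, Kdm5d and Uty were low in WT 2 alone, at 4.52, 5.48 and 4.72, against 9.42 to 10.02 elsewhere. By these genes WT 2 was female and the other heads male, so the groups were not balanced by sex. Markers of forebrain and midbrain were high (Otx2 11.5, Sox2 11.5), whereas of 6 listed hindbrain and spinal cord genes Egr2, Hoxa2, Hoxb4 and Hoxa5 lay between 4.12 and 6.12. The other 2, Hoxb1 at 7.46 and Gbx2 at 7.37, lay above the signal limit.

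Log2 signals of the members ran from 7.09 to 12.2, with a median of 8.77 and quartiles of 8.06 and 9.48. Over all 11802 genes the median was 9.12 and the quartiles 8.17 and 10.04. Signals of different probe sets do not give transcript amounts, so the order of members by signal describes the array and not the tissue. The 5 highest signals belonged to Zfp706, which in mouse embryonic stem cells promotes the exit from self-renewal, Zfp207, a spindle and BUB3-binding protein, Zfp462, Zfp664 and Zfp266. Zfp706 had 12.1, 12.2 and 12.4 among KO-labelled heads, against 12.2, 12.2 and 12.1 among WT-labelled heads. The groups overlapped for Zfp706, and its means of 12.22 ± 0.15 for KO-labelled heads and 12.17 ± 0.04 for WT-labelled heads (SD, n = 3 each) differed by 0.05. The 5 lowest signals belonged to Zfp456, Zfp174, Zfp52, Zfp641 and Zfp974, from 7.09 to 7.16. The 3 members just inside the limit were Zfp456 at 7.09, Zfp174 at 7.10 and Zfp52 at 7.12, and the 3 genes just outside it were Zfp61 at 7.03, Zfp786 at 7.02 and Zfp658 at 7.01. For Zfp456, Zfp174 and Zfp52 the WT-labelled mean lay at or below the limit, and for 0 members the KO-labelled mean did. These 3 passed the limit through the KO-labelled heads, so their place on the higher side is partly set by the choice of members.

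No member passed the test between genotypes. In limma's fit over all 11802 genes, 0 of 262 members had an adjusted p under 0.05, as did 0 genes in all (percent called 0), and the smallest adjusted p of a member was 0.273. At an unadjusted limma p under 0.05 there were 12 members (4.58%), against 7.13% of all genes tested. Of these, 8 were higher in the KO-labelled heads (3.05%, against 2.47% of all genes) and 4 were lower (1.53%, against 4.65%). The split turned to 5 higher and 9 lower with quantile normalisation, against 281 and 692 of all 11802 genes. With median centring it was 3 and 8, against 154 and 640 of all genes, so all genes leaned to the lower side as well. In the deposited values, without Zfp456, Zfp174 and Zfp52, the split was 7 and 4 of 259 members. All 3 KO-labelled heads lay on one side of all 3 WT-labelled heads for 27 members (10.3%), against 12.3% of all genes. They lay above for 14 members, where 4.52% of all genes did, and below for 13, where 7.81% did. This balance depended on scaling too, with 11 above and 21 below under quantile normalisation (4.38% and 9.68% of all genes) and 11 and 24 under median centring (2.94% and 9.88%). In the deposited values neither share of members exceeded the share of all genes, taking both directions together. The heads are whole tissue, in which fewer cells of a type and less RNA per cell cannot be told apart.

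The differences were small. The KO-labelled mean minus the WT-labelled mean ran from −0.19 to 0.29 on the log2 scale, with quartiles of −0.04 and 0.05 and an SD over members of 0.079, against 0.097 over all genes. For 208 members (79.4%) the 95% interval of the limma fit lay within 1.2-fold in either direction, against 76.2% of all genes. For 261 it lay within 1.5-fold, and the exception was Zfp536 with an interval from −0.03 to 0.62. The absolute difference was over 0.1 for 56 members (21.4%), against 21.9% of all genes. The spread within groups had a median SD of 0.080 over the members and 0.077 over all genes.

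The sign of the typical difference depended on how the arrays were scaled. With the deposited values, 143 members were higher in the KO-labelled heads and 119 lower (54.6% higher, against 44.6% of all genes), with a median of 0.012 against −0.0092. With quantile normalisation the split turned to 120 higher and 142 lower with a median of −0.0091, and with median centring to 99 higher and 163 lower with a median of −0.015. The all-gene median moved too, to −0.021 and −0.036. Relative to it the member median stayed above by 0.021 in the deposited values, 0.012 with quantile normalisation and 0.021 with median centring. Without WT 1 that gap was 0.0027, with 127 members higher and 135 lower. The 102 members among the 3934 genes of lowest signal had 59 higher and 43 lower, and the 43 among the 3934 of highest signal had 24 and 19.

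**Figure D1:**
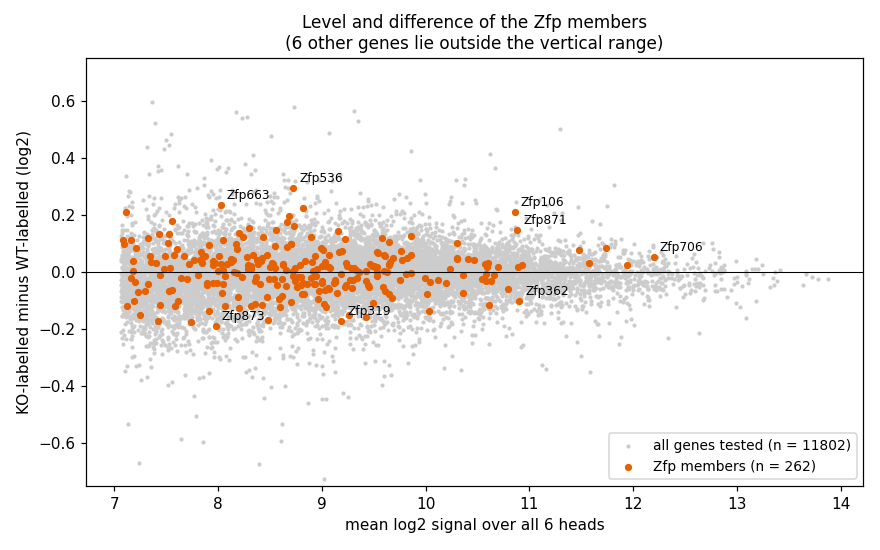
Difference between the mean log2 signals of KO-labelled and WT-labelled heads (vertical) against the mean log2 signal over all 6 heads (horizontal), with 1 point per gene, orange for the 262 members and grey for all 11802 genes tested. The members lie between −0.19 and 0.29 within the grey cloud; in the deposited values 143 lie above 0 and 119 below, and with quantile normalisation or median centring most lie below.

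Zfp106 had the smallest p among the members. It encodes an RNA-binding zinc finger protein whose loss in mice causes degeneration of motor neurons and muscle. Its log2 signal was 10.91, 11.02 and 10.96 among KO-labelled heads, against 10.70, 10.76 and 10.80 among WT-labelled heads. Every KO-labelled head was above every WT-labelled head. The difference was 0.21 (SE 0.05), or 1.16 times, with a limma p of 0.0013 and an adjusted p of 0.273. The difference stayed between 0.18 and 0.24 with each head left out in turn. The unadjusted limma p stayed under 0.05 in 6 of 6 such fits, at 0.0086 or less. Zfp106 was picked by its p from these same values, so this was largely set by the choice. Over the alternatives its adjusted limma p ran from 0.251 to 0.999. Zfp106 lies on chromosome 2, as does Tasp1.

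Another 7 members were higher in the KO-labelled heads at an unadjusted p under 0.05. Zfp871 had 10.96, 11.01 and 10.90 among KO-labelled heads, against 10.76, 10.85 and 10.82 among WT-labelled heads, a difference of 0.15 (limma p 0.0097, adjusted p 0.549). Zfp663 had 8.28, 8.04 and 8.10 among KO-labelled heads, against 8.01, 7.94 and 7.78 among WT-labelled heads, a difference of 0.23 (limma p 0.022, adjusted p 0.650). For Zfp871 and Zfp663 the groups did not overlap, but for Zfp663 KO 2 and WT 1 lay only slightly apart. Zfp52 had 7.12, 7.34 and 7.21 among KO-labelled heads, against 6.96, 7.06 and 7.02 among WT-labelled heads, a difference of 0.21. It is a member only through its KO-labelled heads, since its WT-labelled mean was below the limit, so this difference is a description. Zfp40 had 8.88, 8.78 and 8.77 among KO-labelled heads, against 8.59, 8.64 and 8.71 among WT-labelled heads, a difference of 0.16. In both, WT 1 was the lowest head, and the KO-labelled heads all lay above WT 2 and WT 3 as well. Zfp654 had 8.76, 8.79 and 8.70 among KO-labelled heads, against 8.46, 8.65 and 8.62 among WT-labelled heads, a difference of 0.17 that was 0.11 without WT 1. Zfp318, which in B cells controls the long transcript that yields IgD beside IgM, had 9.95, 9.90 and 9.91 among KO-labelled heads, against 9.73, 9.78 and 9.87 among WT-labelled heads. Zfp318 separated the groups by little, since WT 3 was close to the KO-labelled heads, and differed by 0.13. Zfp58 had 8.61, 8.65 and 8.63 among KO-labelled heads, against 8.44, 8.43 and 8.59 among WT-labelled heads, a difference of 0.15 with WT 3 again near the KO-labelled heads.

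The 4 members that were lower at an unadjusted p under 0.05 differed by 0.17 or less in size. Zfp362, a paralogue of Zfp384, had 10.85, 10.84 and 10.86 among KO-labelled heads, against 10.98, 10.94 and 10.94 among WT-labelled heads, a difference of −0.10 (limma p 0.025, adjusted p 0.666). The heads of each group lay close together, with SDs of 0.0089 for KO-labelled heads and 0.021 for WT-labelled heads (n = 3 each). Zfp319 had 9.13, 9.08 and 9.08 among KO-labelled heads, against 9.36, 9.30 and 9.15 among WT-labelled heads, a difference of −0.17. A second Zfp319 probe set, with a mean signal of 6.82, differed by 0.04, and the mean of both by −0.06. Zfp781 had 10.003, 9.912 and 9.982 among KO-labelled heads, against 10.040, 10.167 and 10.104 among WT-labelled heads, a difference of −0.14. Zfp667, described in rat as the KRAB repressor Mipu1, had 7.27, 7.37 and 7.36 among KO-labelled heads, against 7.54, 7.50 and 7.48 among WT-labelled heads, a difference of −0.17. The groups did not overlap for any of these 4 or for the 8 higher members.

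**Figure D2:**
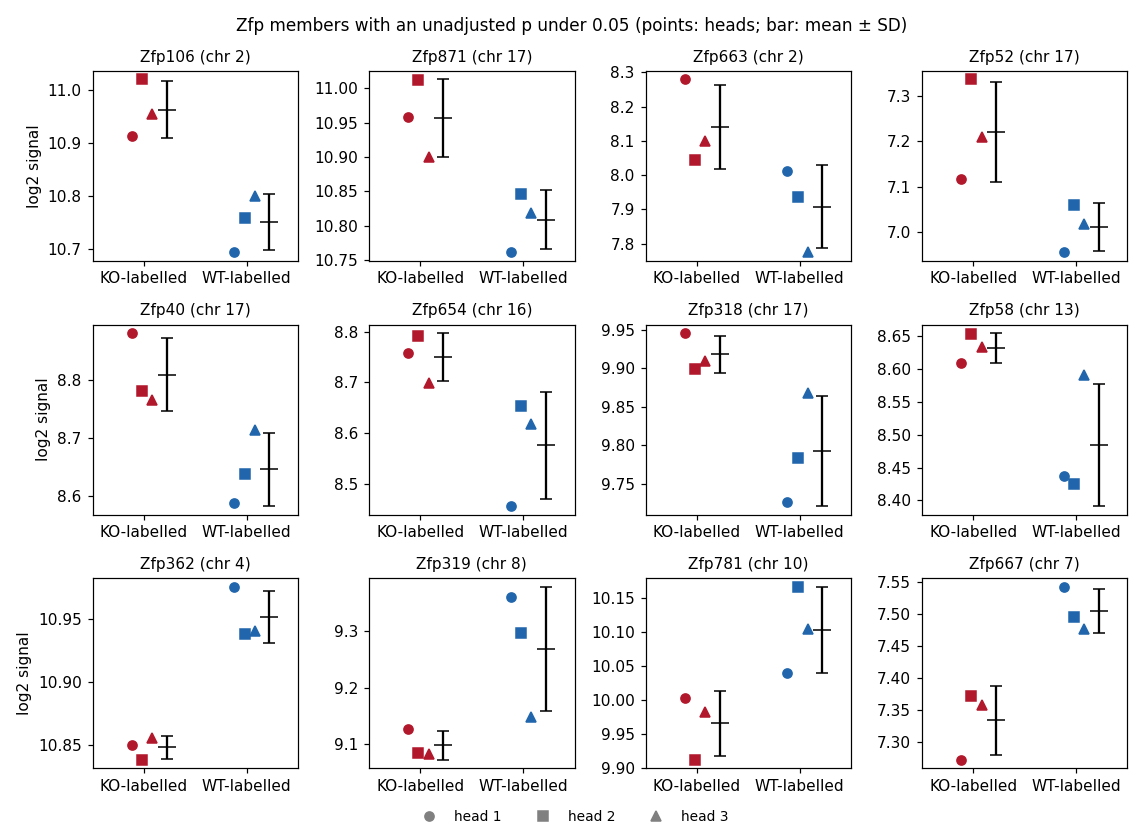
Log2 signal of each head (points, with circle, square and triangle for heads 1 to 3) and the group mean ± SD (bars, n = 3) for the 12 members with an unadjusted limma p under 0.05, each panel on its own vertical range. KO-labelled heads (red) lie above all WT-labelled heads (blue) in the first 8 panels and below them in the last 4, and no member passed the adjusted threshold.

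The rest of the 12 higher and the 12 lower members of smallest p, 4 higher and 8 lower, had adjusted limma p-values from 0.712 to 0.771. Zfp536, a repressor of neuronal differentiation, had the widest difference of any member, at 0.29. Its signal was 9.01, 8.94 and 8.65 among KO-labelled heads, against 8.21, 8.76 and 8.76 among WT-labelled heads. WT 1 alone was low, KO 3 lay below WT 2 and WT 3, and without WT 1 the difference was 0.11. Zfp991 differed by 0.23, Zfp235 by 0.18 and Zfp958 by 0.16. On the lower side were Zfp873 at −0.19, Zfp3 at −0.17, Zfp628 at −0.17, Zfp414 at −0.16, Zfp623 at −0.15, Zfp446 at −0.13, Zfp408 at −0.12 and Zfp689 at −0.11. A single head set much of the size in some of these. Without WT 1, Zfp628 differed by −0.10, Zfp623 by −0.05 and Zfp414 by −0.06, and without KO 3 Zfp873 differed by −0.08. Without KO 2, Zfp3 differed by −0.10 and Zfp628 by −0.11, and without KO 1 Zfp991 differed by 0.34.

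Promoters are shown for the 2 higher and the 2 lower members of smallest p that have exactly 1 listed transcription start, as the start regions of genes whose values stand above. They come from RefSeq on GRCm38.p6 and run 5′ to 3′ on the gene's strand, from 250 bases before the start to 50 after it. Capitals mark the GC box GGGCGG and the CCAAT box on either strand, searched as plain letters. In Zfp106 a match to CCAAT on each strand overlaps the other. The windows are chr2:120563810-120564109 for Zfp106, chr2:165368687-165368986 for Zfp663, chr8:95331762-95332061 for Zfp319 and chr10:81930463-81930762 for Zfp781, all on the minus strand.
Zfp106: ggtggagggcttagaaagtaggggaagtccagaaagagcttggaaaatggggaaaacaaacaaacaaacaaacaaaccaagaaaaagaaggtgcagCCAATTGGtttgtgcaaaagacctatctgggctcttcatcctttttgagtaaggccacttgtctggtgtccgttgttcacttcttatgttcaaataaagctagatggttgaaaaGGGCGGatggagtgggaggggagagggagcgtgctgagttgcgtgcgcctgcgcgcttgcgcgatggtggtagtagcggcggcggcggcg
Zfp663: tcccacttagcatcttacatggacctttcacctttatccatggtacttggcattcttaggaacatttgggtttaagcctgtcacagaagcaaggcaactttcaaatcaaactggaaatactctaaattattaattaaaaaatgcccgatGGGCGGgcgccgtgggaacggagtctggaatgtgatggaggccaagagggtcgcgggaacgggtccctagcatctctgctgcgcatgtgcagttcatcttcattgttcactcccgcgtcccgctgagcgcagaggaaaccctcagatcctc
Zfp319: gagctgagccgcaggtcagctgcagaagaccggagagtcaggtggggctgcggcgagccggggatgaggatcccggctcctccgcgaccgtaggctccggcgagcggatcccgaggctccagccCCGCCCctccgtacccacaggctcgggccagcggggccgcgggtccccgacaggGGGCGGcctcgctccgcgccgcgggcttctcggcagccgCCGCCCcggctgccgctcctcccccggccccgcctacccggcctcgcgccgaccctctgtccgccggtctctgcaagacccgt
Zfp781: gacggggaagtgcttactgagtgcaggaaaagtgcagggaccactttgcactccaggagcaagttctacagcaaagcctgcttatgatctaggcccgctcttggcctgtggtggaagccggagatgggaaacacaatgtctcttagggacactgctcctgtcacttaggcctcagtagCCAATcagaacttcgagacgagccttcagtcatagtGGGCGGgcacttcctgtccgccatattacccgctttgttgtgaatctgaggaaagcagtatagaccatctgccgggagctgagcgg

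The window of Zfp319 held 3 GC boxes and 40 CG pairs, that of Zfp106 held 1 GC box and 14 CG pairs, that of Zfp663 held 1 and 13, and that of Zfp781 held 1 and 10. RefSeq listed 262 promoters for 212 of the members. A GC box was in 120 of these windows (45.8%), against 63.9% of 12050 windows of genes tested and 35.7% of all 32851 windows listed. A CCAAT box was in 113 (43.1%), against 37.7% and 37.4%. The ETS core CCGGAAG was in 54 (20.6%), against 17.02% and 8.86%, and TATAAA in 20 (7.63%), against 6.82% and 13.6%. The member windows had a median of 16 CG pairs and 55.8% GC, against 21 and 61.3% over the genes tested. A match to these letters is a description of the window and not a bound site.

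Members known for neural development lay on both sides of 0. Of 13 such genes listed, 11 were members, with 6 higher and 5 lower in the KO-labelled heads, a median of 0.021 and 0 called. The split was 6 and 5 with quantile normalisation, but 4 and 7 with median centring, without KO 2 or without WT 1. Zfp423, a partner of EBF and of BMP-activated SMAD proteins needed for the cerebellar midline, had 10.11, 10.07 and 10.11 among KO-labelled heads, against 10.08, 10.13 and 10.18 among WT-labelled heads. Its relative Zfp521, which drives early neural differentiation, had 10.97, 10.99 and 10.86 among KO-labelled heads, against 10.83, 10.97 and 10.95 among WT-labelled heads. The groups overlapped in both, with differences of −0.03 for Zfp423 and 0.02 for Zfp521. Zfp703 and Zfp503, corepressors of the NET family, differed by −0.11 and −0.04, and Zfp703 by −0.05 without KO 2. Zfp335, whose human form is mutated in a microcephaly, differed by 0.02. Zfp292 and Zfp462, both linked to human neurodevelopmental disorders, differed by 0.10 and 0.08, but by 0.04 and 0.0095 without WT 1. Zfp488, a partner of OLIG2 in oligodendrocytes, differed by −0.15, or by −0.04 without WT 2, and X-linked Zfp711, a partner of the demethylase PHF8, by 0.05. Zfp219, a partner of SOX9, had 9.41, 9.44 and 9.43 among KO-labelled heads, against 9.47, 9.49 and 9.47 among WT-labelled heads. The groups of Zfp219 did not overlap although the difference was only −0.05 (limma p 0.310). Its spread within groups, 0.014, was among the 5 smallest. Zfp365 lay below the signal limit and Zfp238 had no probe set of its own name alone.

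Members known to silence retroelements or guard imprints were also mixed. Of 7 listed, 5 were members, with 2 higher and 3 lower under each of the 3 scalings (3 and 2 without KO 3), a median of −0.022 and 0 called. Zfp57, which keeps methylation at imprinted control regions, had 10.89, 10.71 and 10.69 among KO-labelled heads, against 10.73, 10.91 and 10.84 among WT-labelled heads. The groups overlapped, and Zfp57 differed by −0.06. Zfp445, which shares that task, differed by −0.04. Zfp568, which silences a placental transcript of Igf2, had 9.19, 9.35 and 9.13 among KO-labelled heads, against 8.94, 9.07 and 9.23 among WT-labelled heads. Its difference of 0.14 (limma p 0.122), with WT 3 above KO 1 and KO 3, was 0.07 without WT 1 and 0.08 without KO 2. Zfp809, the silencer of murine leukaemia virus, had 8.89, 8.88 and 8.88 among KO-labelled heads, against 8.89, 8.94 and 8.89 among WT-labelled heads, close together in all 6. Zfp708, another retroelement binder, differed by 0.08, by 0.10 without WT 1 and by 0.05 without KO 2. Zfp819 lay below the limit and Zfp932 had no probe set naming it alone.

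Of 11 genes listed as stem cell or general promoter factors, 8 were members, with 3 higher and 5 lower, a median of −0.015 and 0 called. The split was 4 and 4 with quantile normalisation, 1 and 7 with median centring and 5 and 3 without KO 3. Zfp281, a regulator of pluripotency exit, differed by 0.02. Zfp148, which binds GC-rich promoters, differed by 0.04. Zfp410, an activator of the NuRD gene Chd4, differed by −0.02, and Zfp384 by −0.0075. Zfp217, whose human form is amplified in breast cancer, differed by −0.04, Zfp131 by −0.03, Zfp207 by 0.02 and Zfp64, which sustains MLL expression in human leukaemia cells, by −0.08 (−0.02 without WT 1 and −0.03 without KO 1). Zfp42 (Rex1), an embryonic stem cell marker, lay below the limit, and Zfp143 and Zfp91 had no probe set of their own name alone.

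All 8 listed RNA and ribosome factors were members, with 6 higher and 2 lower, a median of 0.029 and 0 called. That split was 5 and 3 with quantile normalisation, 4 and 4 with median centring, and 3 and 5 without WT 1. Zfp106 led the list. Zfp598, the ubiquitin ligase that marks collided ribosomes, had 9.22, 9.18 and 9.19 among KO-labelled heads, against 9.18, 9.11 and 9.10 among WT-labelled heads. Its groups did not overlap, but only just, and the difference was 0.07 (limma p 0.223). Zfp638, a nuclear RNA-binding protein, differed by 0.05, and Zfp830, which takes part in splicing, by 0.04. Zfp346, which binds double-stranded RNA, differed by 0.02, and Zfp326, part of the DBIRD complex of transcript elongation, by 0.0041. Zfp36 (TTP), which directs decay of AU-rich transcripts, differed by −0.02, and Zfp622, a late factor of 60S subunit maturation, by −0.03. Of the 32 members of these 4 lists, 14 changed sign when some single head was left out.

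**Figure D3:**
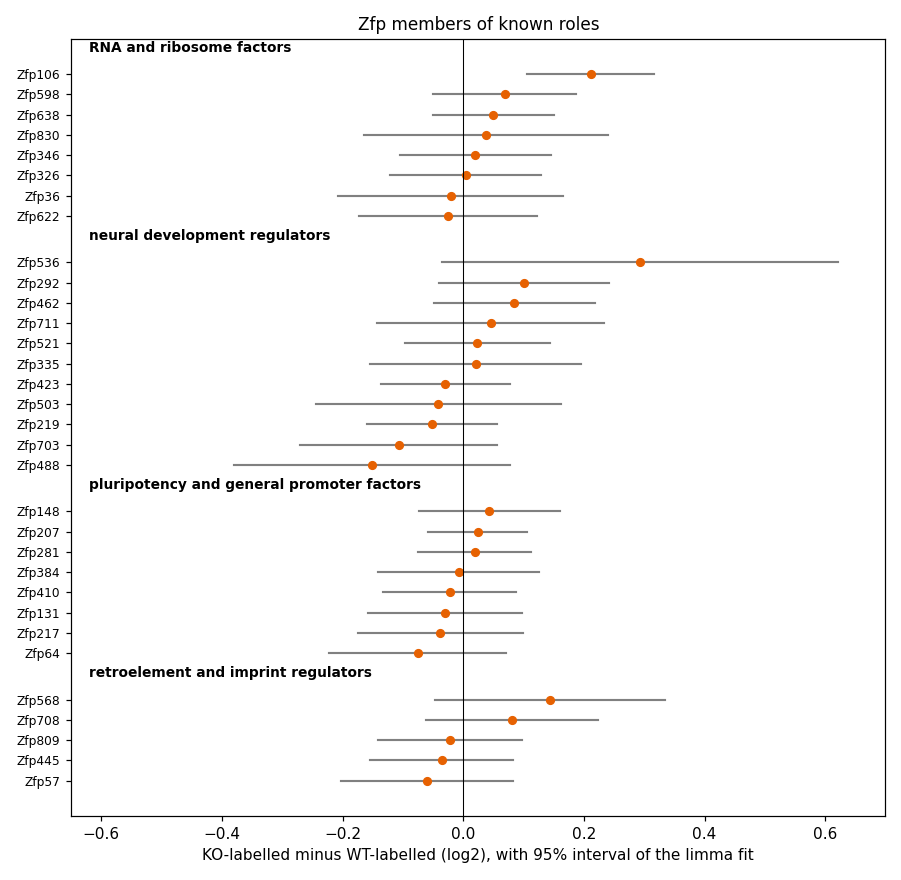
Difference between KO-labelled and WT-labelled heads (log2) with the 95% interval of the limma fit for the 32 members of the 4 role lists, 1 row per gene. The interval of Zfp106 lies above 0, while those of the other 31 span 0; the numbers of points above and below 0 change with scaling for the RNA and ribosome, the neural development and the promoter lists, and not for the retroelement list.

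The genes that KRAB zinc finger proteins act through were measured beside the members. Of 20 listed, 18 were tested, with 11 higher and 7 lower, a median of 0.020 and 0 called. At an unadjusted limma p under 0.05 there were 0 of the 18, against 7.13% of all genes. With quantile normalisation 13 were higher and 5 lower, and with median centring 7 and 11. Trim28, the corepressor itself, had 11.83, 11.83 and 11.88 among KO-labelled heads, against 11.97, 11.89 and 11.85 among WT-labelled heads. The groups overlapped and differed by −0.05. Setdb1, the histone methyltransferase that TRIM28 recruits, differed by 0.01, and the heterochromatin protein gene Cbx5 by 0.05. Morc3, which helps silence retroelements, had the smallest p of the list, at 0.056 in the limma fit, with a difference of 0.11. Chd3, a NuRD remodeller, differed by 0.11.

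The members were concentrated on a few chromosomes. Chromosome 7 held 68 of them (26.0%, against 7.65% of all genes tested) and chromosome 17 held 31 (11.8%, against 4.75%). Chromosome 13 held 22, chromosome 8 held 20 and chromosome 9 held 15. On chromosome 17, 21 members were higher in the KO-labelled heads and 10 lower, with a median of 0.049 against −0.013 for all genes tested there. The split was 18 and 13 with quantile normalisation, 17 and 14 with median centring, and 21 and 10 without WT 1, where the median was 0.023. Zfp871, Zfp52, Zfp40 and Zfp318 all lie there, so chromosome 17 held 4 of the 8 higher members at an unadjusted p under 0.05 and none of the 4 lower ones. Those 4 were 12.9% of its members, against 2.47% of all genes and 2.32% of all genes tested on that chromosome. The count was 1 with median centring, without KO 2 or without WT 1, and 2 without KO 1 or without WT 2. It also includes Zfp52, and was 3 of 30 without it. The KO-labelled heads lay above the WT-labelled heads for 6 of its 31 members (19.4%, against 4.52% of all genes) and below for 0. Without Zfp52 this was 5 of 30. On chromosome 7, 30 members lay above 0 and 38 below, their median being −0.018 against −0.022 for all genes there, and under quantile normalisation and median centring the splits were 24 and 44, and 22 and 46. On chromosome 13 the split was 14 and 8, and 10 and 12 with median centring. Members on a chromosome share neighbours and may share sequence, so these counts are descriptions.

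On chromosome 2, which carries Tasp1, 13 members had 7 higher and 6 lower, a split that turned to 5 and 8 with median centring or without WT 1, and to 6 and 7 without KO 1, KO 3 or WT 2. Its 2 members at an unadjusted p under 0.05 (15.4%, against 7.13% of all genes), Zfp106 and Zfp663, were both higher. Zfp408 and Zfp770 had all KO-labelled heads below the WT-labelled heads. In all, the groups did not overlap for 4 of the 13 members (30.8%, against 12.3% of all genes). With 13 members these shares rest on few genes and are descriptions. Zfp770 had the smallest spread of any member, with 10.17, 10.17 and 10.19 among KO-labelled heads, against 10.20, 10.21 and 10.22 among WT-labelled heads, a difference of −0.04. The 4 members on chromosome X differed by −0.0012 to 0.06. One of them, Zfp182, was among the 5 most variable members, with 7.56, 7.41 and 7.27 among KO-labelled heads, against 7.05, 7.56 and 7.53 among WT-labelled heads. WT 1 was the low head there, and WT 2, the head with high Xist, was close to WT 3.

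**Figure D4:**
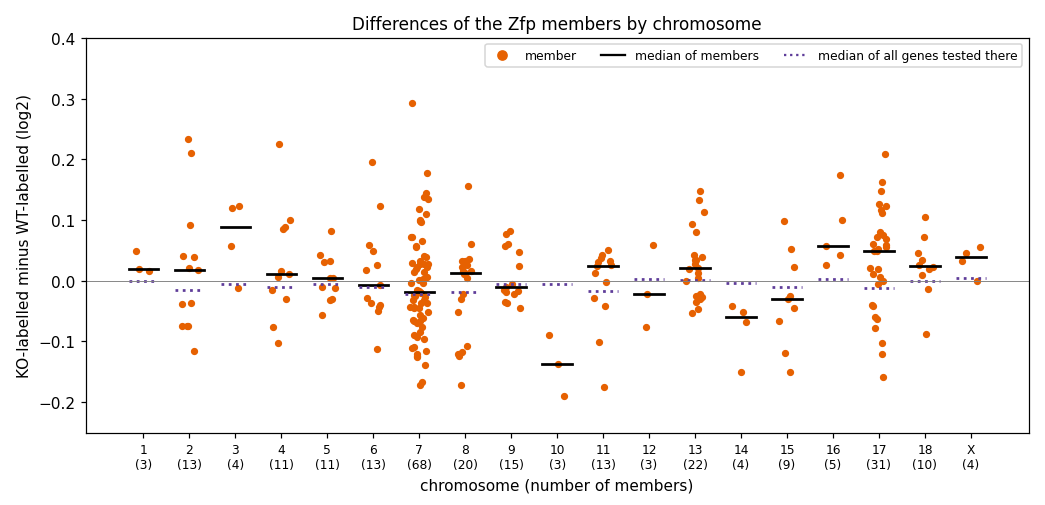
Difference between KO-labelled and WT-labelled heads (log2) for each member, by chromosome with the number of members in brackets; black bars are medians of members and dotted bars medians of all genes tested on that chromosome. On chromosome 17 most points lie above 0 (21 of 31, and 17 of 31 with median centring), and on chromosome 7 the 68 points spread from −0.17 to 0.29 around a median of −0.018.

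Neighbouring members were counted by their direction. Of the 262, 104 (39.7%) had another member as the next protein-coding gene in the RefSeq table, in 40 runs. Among 24 pairs, both genes differed on the same side in 15, and among 16 runs of 3 or more genes, all did in 3. The longest runs were named for their length. On chromosome 13, Zfp458, Zfp457, Zfp595, Zfp953 and Zfp456 had 4 higher and 1 lower, from −0.00080 to 0.13. On chromosome 17, Zfp51, Zfp53, Zfp52, Zfp948 and Zfp983 also had 4 higher and 1 lower, from −0.0056 to 0.21, with Zfp52 at the top. Next to Zfp871 on chromosome 17, the run with Zfp811, Zfp799 and Zfp870 had 2 higher and 2 lower. Neighbours of this family can be alike in sequence, and cross-hybridisation between them was not tested.

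The members were lowest most often in WT 1. That head gave the lowest signal for 80 members (30.5%, against 21.5% of all genes) and the highest for 52 (19.8%, against 29.6%). KO 3 was lowest for 72 (27.5%, against 25.7%) and highest for 14 (5.34%, against 6.77%). KO 1 was highest for 64 (24.4%, against 17.6%). The median deviation of the members from their own 6-head mean was 0.023, 0.016 and −0.031 among KO-labelled heads, against −0.020, 0.00040 and 0.020 among WT-labelled heads. The heads of a group therefore differed in this median by more than the genotypes did. For all genes the same medians were 0.0055, 0.0090 and −0.028 among KO-labelled heads, against 0.014, −0.0073 and 0.011 among WT-labelled heads.

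**Figure D5:**
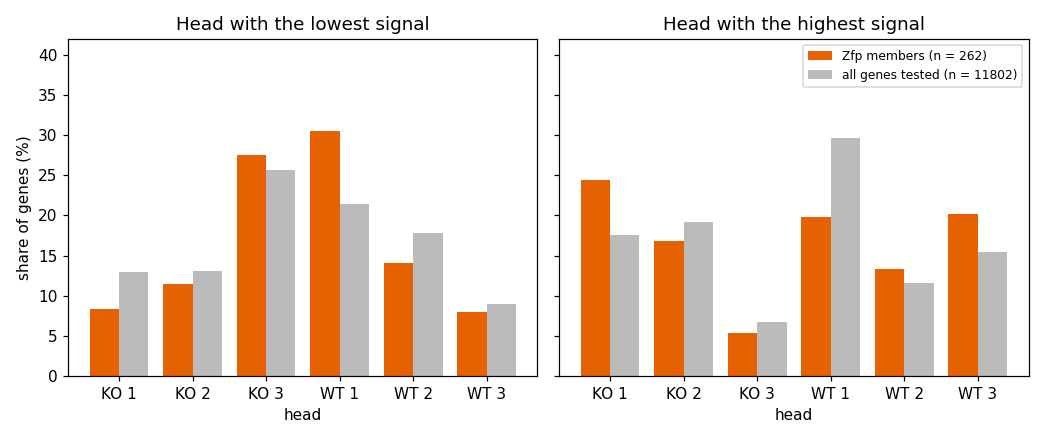
Share of genes (%) for which each head has the lowest (left panel) or the highest (right panel) signal of the 6, for the 262 members (orange) and all 11802 genes tested (grey). WT 1 is the lowest head for 30.5% of the members and 21.5% of all genes, and the highest for 19.8% of the members and 29.6% of all genes.

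The most variable members within groups were Zfp536, Zfp182, Zfp407, Zfp580 and Zfp213, with pooled SDs of 0.20 to 0.26. Zfp580 had 9.54, 9.34 and 9.44 among KO-labelled heads, against 9.87, 9.30 and 9.48 among WT-labelled heads. Zfp213 had 7.91, 7.93 and 8.17 among KO-labelled heads, against 8.39, 8.04 and 7.93 among WT-labelled heads. WT 1 was the highest head in Zfp580 and Zfp213, whereas it was the lowest in Zfp536, Zfp182 and Zfp407. The least variable were Zfp770, Zfp219, Zfp362, Zfp454 and Zfp809, with SDs of 0.0098 to 0.022.

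Markers of other cells in the dissected tissue differed in level beside these values. The 5 erythroid markers tested were all lower in the KO-labelled heads, with a mean log2 signal of 10.94 to 11.03 for KO-labelled heads and 11.05 to 11.14 for WT-labelled heads, although 2 of the 5 were higher with quantile normalisation, without KO 2 or without WT 2. The 6 neuronal markers were all lower under each of the 3 scalings (5 of 6 without KO 3), with means of 9.55 to 9.97 for KO-labelled heads and 9.82 to 10.08 for WT-labelled heads. The widest differences of these 2 lists were −0.21 for the embryonic globin Hbb-bh1 and −0.46 for Neurod1, a driver of neuronal differentiation. Of 10 forebrain and midbrain markers, 4 were higher and 6 lower, among them the cortical patterning genes Lhx2 at −0.33 and Emx2 at −0.32. Lhx2 had the smallest adjusted limma p of the 41 markers tested, at 0.228. Cranial mesenchyme and neural crest markers had 3 higher and 2 lower, with Sox10 at −0.38, and macrophage markers had 1 higher and 2 lower, with C1qb at −0.30. Endothelial markers had 4 higher and 1 lower, surface ectoderm markers 2 and 3, with Cdh1 at 0.16 and Epcam at −0.11, and hindbrain and spinal cord markers 0 and 2. Several of these splits reversed. Endothelial markers had 1 higher and 4 lower with median centring, and surface ectoderm markers 4 and 1 without KO 1 or without WT 3. Cranial mesenchyme and neural crest markers had 0 and 5 without KO 1 or without WT 1. Forebrain and midbrain markers had 6 and 4 without WT 1. The KO-labelled and WT-labelled heads did not overlap for 8 of the 41 (19.5%, against 12.3% of all genes), namely Cdh1 on the higher side and Lhx2, Emx2, Sox10, C1qb, Hbb-bh1, Neurod1 and Epcam on the lower. None of the 41 passed the adjusted limma threshold. Their part in the members' values was not tested.

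Of the 262 members, 250 rested on 1 probe set of their own name alone and 12 on several. The probe sets of 7 of these differed in the same direction, and those of Zfp319, Zfp395, Zfp664, Zfp672 and Zfp738, named for that reason after their values were seen, did not. Zfp788 is among the 7, but its 2 probe sets held identical values. They count as 1 measurement, and their shared direction was fixed in advance. In no gene did 2 probe sets of opposite sign both reach an unadjusted p under 0.05.

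Other zinc finger genes were set beside the members by name. Of 37 Zbtb genes, whose proteins join zinc fingers to a BTB domain, 18 were higher and 19 lower, and their median difference was −0.0067. At an unadjusted limma p under 0.05 there were 6 (2 higher, 4 lower), or 16.2%, against 7.13% of all genes, but 1 without KO 2 and 3 without WT 1 or without WT 2. That count was 0 of the Zscan or Zkscan genes and 2 of the Klf or Sp genes named next. Of 17 Zscan or Zkscan genes, which carry a SCAN domain, the KO-labelled mean was higher in 5 and lower in 12, and the median was −0.020. Of 21 Klf or Sp genes, whose proteins bind GC-rich boxes, 6 were higher, 15 lower, and the median was −0.039. More genes of the SCAN, the Klf or Sp and the Zbtb group were lower than higher under each of the 3 scalings, and so were more of all genes. In the deposited values, with quantile normalisation and with median centring, 44.6%, 38.9% and 31.0% of all genes were higher. The Zbtb shares lay above these, at 48.6%, 40.5% and 37.8%. The SCAN shares lay below, at 29.4%, 17.6% and 17.6%, and so did those of the Klf or Sp group, at 28.6%, 14.3% and 9.52%. Without WT 2, however, the SCAN group had 9 higher and 8 lower, and without KO 3 the Zbtb group had 21 and 16. The differences between these groups and the members were not tested.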

How the data were processed

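RNA of 6 embryo heads was read on 1 Affymetrix array each, from 100 ng of total RNA per the labels' protocols. The deposited table holds log2 signals for 35556 probe sets, with array medians of 7.35 to 7.45. Affymetrix Expression Console and MAS5 are named in the submitters' processing notes. The steps by which the authors made these log2 values (background, scaling, summarisation) are not given in the sources used here. They were used unchanged. Raw scanner signals were not analysed here, so detection above background is unknown.

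Of the probe sets, 21789 had 1 gene symbol in the platform annotation, 1621 several and 12146 none. The 40% of single-symbol probe sets with the lowest mean were left out, which sets the limit of 7.06, and each gene took its probe set with the highest mean. All 262 members matched the gene table of GRCm38.p6.

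Groups were compared with limma 3.58.1 (lmFit and eBayes with a trend, R 4.3.3), two-sided, with Benjamini-Hochberg adjustment over 11802 genes and a threshold of 0.05. The procedure was tested on simulated data. Only 3 heads per group limit the precision. The labels number heads 1 to 3 in both groups and state no pairing, so the numbers were not used as a block. Alternatives were other scalings, filters, probe set rules, variance models, a replicate block, leaving out chromosomes 2 or X and Y, and leaving out each head.

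The text names the 12 higher and 12 lower members of smallest p, the 5 of highest and of lowest signal, the 3 nearest the limit on each side, the 5 most and least variable, members of the role lists, members on chromosome 2 or X with an unadjusted p under 0.05, and for KRAB partners up to 4 of smallest p. Trim28, Setdb1 and Cbx5, the X-linked and the neighbouring genes were added for their known role or place. The members and lists were chosen with earlier results of these data known. Classes by protein domain were planned but protein sequences were not used here. Figures were drawn with matplotlib 3.10.9.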

Additional observations from a re-analysis of the deposited data

Results flagged for a closer look

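A probe set shared by several genes lay outside the comparison of members and separated the groups. Probe set 10442238, annotated to Gm10509, Zfp983 and Zfp51, had log2 signals of 9.02, 9.01 and 9.13 among KO-labelled heads, against 8.76, 8.73 and 8.91 among WT-labelled heads. All KO-labelled heads lay above all WT-labelled heads, and the KO mean of 9.05 ± 0.07 exceeded the WT mean of 8.80 ± 0.10 (SD, n = 3 each) by 0.25 (SE 0.07, limma p 0.0050, adjusted p 0.463). It did not pass the adjusted threshold, and which of the 3 genes gave the signal was not tested. It had the smallest p of the 33 such probe sets with a Zfp name above the limit. Probe set 10442236, annotated to Gm10509 and Zfp983, had overlapping groups and differed by 0.03 (limma p 0.642).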

How the results depend on the processing

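Under all 17 alternatives 0 members were called, with smallest adjusted p-values of a member, by limma, from 0.251 to 0.999. Over all genes, 0 were called as reported, 1 with quantile normalisation, 2 without the signal filter, 1 with the 60% filter, and 0 to 6 with a head left out (6 without KO 1, 1 without WT 1). The 12 members at an unadjusted p under 0.05 were 7 with the replicate block (6 higher, 1 lower) and 6 to 18 with a head left out. They were 6 without KO 2 or without WT 1 and 18 without KO 3 or without WT 3. Counts over all 11802 genes moved too. They were 292 higher and 549 lower as reported, and 221 and 449 with the block. Without KO 2 they were 118 and 298, without WT 1 272 and 379, without KO 3 418 and 449, and without WT 3 458 and 627. The 27 members whose groups did not overlap were 15 with the 60% filter, which kept 156 members. They were 41 (without KO 2) to 75 (without KO 3) with a head left out, since fewer heads need to be apart. Over all genes, the KO-labelled heads lay above for 534 and below for 922 as reported. With the 60% filter this was 371 and 563 of 7749 genes. It was 656 and 1413 without KO 2, and 1652 and 1526 without KO 3. The median member difference of 0.012 was −0.015 with median centring and −0.0065 to 0.022 with a head left out, and the cause of these shifts was not tested. Deviations from the group means correlated at −0.17, −0.11 and −0.21 between heads of the same number. Of 6 heads, 0 correlated best with the head of its own number. These values show no pairing by number. They cannot exclude one, since deviations of 3 heads from their own mean are not independent. The 12 higher and the 12 lower members of smallest p kept their direction in every alternative run. They were picked by p from these same values, so this was largely set by the choice. Where the groups do not overlap, leaving out a head cannot reverse the direction. Among the 1107 values of the 67 named members under alternatives, several moved by more than the spread within groups. With median centring these included Zfp219, Zfp362 (−0.10 to −0.13), Zfp770, Zfp809 and Zfp454, and with quantile normalisation Zfp454. With the mean of their probe sets they included Zfp664 and Zfp319 (−0.17 to −0.06).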

Other observations

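In all, 39 probe sets named several genes with at least 1 Zfp symbol among them, and 33 lay above the signal limit. In a limma fit over 13927 named probe sets above it, 12 probe sets were called, 0 of them with a Zfp name. At an unadjusted p under 0.05, 4 of the 33 with a Zfp name were higher in the KO-labelled heads and 2 lower. The share of all 13927 probe sets at that p was not counted, and in the main fit it was 7.13% of 11802 genes. Several of these probe sets share annotated genes or hold identical values, so the counts are not of separate measurements. Of the higher ones, 3 are annotated to a family around Zfp534, Zfp987, Zfp991 and Zfp992. The first had 10.70, 10.87 and 10.93 among KO-labelled heads, against 10.39, 10.63 and 10.71 among WT-labelled heads, a difference of 0.26. Its KO-labelled and WT-labelled heads overlapped by KO 1 and WT 3, and WT 1 was lowest. The others differed by 0.25 and 0.16, and the member Zfp991, measured on a probe set of its own name alone, by 0.23. The 2 lower probe sets hold identical values, name 17 genes including Zfp970, Zfp971 and Zfp931, and differed by −0.09. Zfp558, a member that differed by 0.06, has a second probe set with 8.14, 8.19 and 8.03 among KO-labelled heads, against 7.86, 7.97 and 7.98 among WT-labelled heads, a difference of 0.18.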
